A study of Canis lupus familiaris with 36 samples.

Results

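CLBL-1 is an established canine B-cell lymphoma cell line that grows in suspension. The 6 libraries described here are the CLBL-1 cells that received only dimethyl sulfoxide (DMSO), the solvent of the inhibitors, and were harvested after 24 h or 48 h; they were chosen by their treatment and time labels from the 36 poly-A RNA-seq libraries of a study of Ibrutinib (Ibr, a BTK inhibitor) and AS-605240 (AS, an inhibitor of the PI3K gamma subunit). Each time point holds 1 culture from each of passages p121, p126 and p128, so the comparison of 48 h with 24 h has 3 pairs. The other groups of the study were DMSO at 72 h and, at all 3 times, 1 µM Ibr, 5 µM AS and their combination (Ibr + AS). All 6 cultures carried as much DMSO as the combination arm, none was left without solvent, and all cells came from 1 line, so time in culture, time with DMSO and increasing cell density cannot be told apart. By the study's sample sheet the RNA of a passage was isolated on the same day for both times, so the 24 h lysates were kept longer, which cannot be told apart from time either.

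Suspension cultures generally use up serum components and become denser as cells divide. The study describes these incubations as culture without renewal of the medium. Density was not analysed here. Sterol supply is read by SREBP-2, the product of SREBF2, which is held in the endoplasmic reticulum when sterols are plentiful and released to switch on cholesterol synthesis and uptake genes when they are scarce. Early response genes such as EGR1 and MYC follow growth factor and antigen receptor signals within hours, and BTK and PI3K lie on the route from the B-cell receptor to many of them. In bulk RNA, fewer cells of a type and less RNA per cell cannot be told apart.

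Between 10910175 and 14703839 reads were counted on genes in the 6 libraries, and 3 reads, the limit that a count of 0 allows for counting error alone, corresponded to 0.205 to 0.273 CPM (counts scaled to the size of the library). The 24 h and 48 h DMSO libraries of a passage carried library numbers of the same block (w1 to w18 or w19 to w36), which was taken as the sequencing run. In passage p126 the AS and Ibr + AS libraries at 48 h, and all libraries at 72 h, lay in the other block from the 24 h ones. There time cannot be told apart from the presumed run. The 48 h cultures differed from one another more than the 24 h cultures did, with a chi-square per degree of freedom of 5.34 to 13.2 between pairs at 48 h and 1.87 to 4.15 at 24 h. The largest values, 13.2 and 9.7, both involved the 48 h library of passage p121. Part of the results that rest on it are given with and without it, and 20 of the 51 genes named by rule lost the call without it. Differences of single genes between inhibitor arms and DMSO are given only with it. As to the label, 6 of the 14 B-cell markers listed could be paired with a measured gene. Among them DLA-DRA stood at 2680 to 3410 CPM, TNFRSF13C, the receptor for the B-cell survival factor BAFF, at 105 to 131 CPM and IRF5 at 114 to 119 CPM. TCF4 was at 71.2 to 116 CPM and BCL2 at 19.8 to 30.3 CPM, while CPNE5, at 0 to 0.146 CPM, stayed below the level of 3 reads. The markers MS4A1, CD79A and PAX5 had no symbol pairing and were not analysed here. The 5 T and NK cell markers measured summed to 0.418 to 0.775 CPM in each library. Of the 6 myeloid markers, NCF4 reached 163 to 197 CPM and LYZ 67.6 to 95.1 CPM; the list summed to 285 to 301 CPM at 24 h and 263 to 296 CPM at 48 h, and 0 of its members passed the test by edgeR or DESeq2, with 1 (TREML2) at an unadjusted edgeR p of at most 0.05. TREM2, a defining marker of that list, was at or near 0 in every library. Part of these genes are also expressed by B cells.

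The second day of DMSO culture was marked by many small increases and a smaller number of decreases. Of 16468 genes tested with edgeR, 1231 (7.48%) differed at an adjusted p of at most 0.05, 774 (4.7%) higher and 457 (2.78%) lower at 48 h. Their median log2 fold change (FC) was 0.45 for the genes that rose and -0.32 for the genes that fell. A further limit of an absolute log2 FC above 1 defined differentially expressed genes (DEGs) and left 107 genes (0.65%), of which 96 (0.583%) were higher and 11 (0.0668%) lower at 48 h. All 96 and all 11 had the same direction in each of the 3 passages. The 48 h libraries lay entirely above the 24 h libraries for 93 of the 96, against 12.4% of all genes tested, and entirely below them for all 11, against 10.3%, which the choice of DEGs largely fixes. Over all genes tested the median log2 FC was 0.01. When the 48 h library of passage p121 was left out, 621 genes remained past the adjusted p, 75.7% of them higher, and 96 were DEGs. When passage p121, p126 or p128 was left out whole, 445, 824 and 191 genes passed the adjusted p and 85, 101 and 46 were DEGs, with 2 pairs left in each fit.

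The balance of increases and decreases depended on the level of a gene. Among genes of 1 to 10 CPM, 5.52% rose and 1.29% fell. Among genes of 10 to 100 CPM, 7.81% rose and 3.92% fell. Above 100 CPM the order turned, with 7.03% higher and 8.59% lower. Of the genes below 1 CPM, 17 rose and 2 fell out of 5778. DEGs were mostly weakly expressed: the 96 that rose had a median level of 3.24 CPM over the 6 libraries, with 14 of them above 100 CPM, and the 11 that fell ranged from 0.713 to 12.2 CPM. For 9 of the 96, all 24 h libraries held 3 reads or fewer, so their rise is known only as at least 1.15-fold to 3.94-fold. Of the other DEGs, the highest log2 FC was 3.34. Just inside the limit lay ENSCAFG00000030749, from 512 to 1030 CPM (log2 FC 1.00), and just outside it ENSCAFG00000017950, from 12.1 to 24.3 CPM (0.99).

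**Figure D1:**
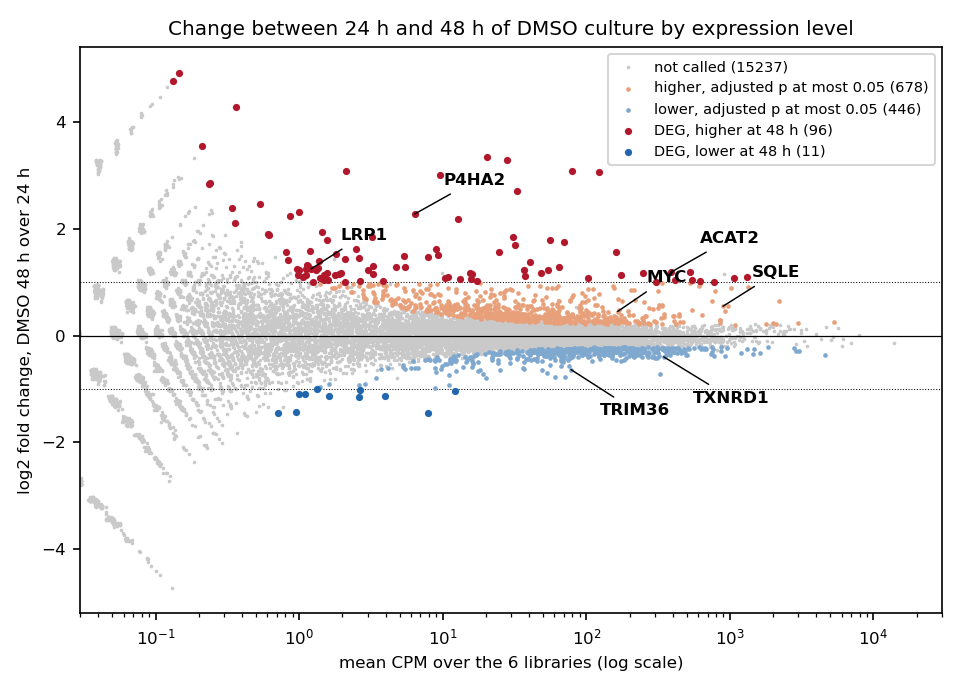
Log2 FC of DMSO 48 h over 24 h (y axis) against the mean CPM of the 6 libraries (x axis, log scale) for each gene tested, coloured by call, with dotted lines at a log2 FC of 1 and -1. Calls above the upper line (96) outnumber those below the lower line (11). Of the labelled genes at high level, SQLE and TXNRD1 changed by less than a log2 FC of 1, while ACAT2, at a mean of 390 CPM, rose by 1.19.

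Only 1041 of the genes tested (6.32%) could be given a symbol, since the count table holds Ensembl identifiers and the symbols came from tables of the study that were held here only in part, mostly the lowest identifiers. Of these, 90 (8.65%) passed the adjusted p, 54 higher and 36 lower at 48 h, and all 90 kept 1 direction in the 3 passages. DEGs with a symbol numbered 4 (0.384% of those tested), and 103 had none. The gene groups below can therefore be read only for the members that had a symbol. Their lists were chosen with earlier results of these data known, so counts beside the share of all genes are not a test. That share also covers 5778 genes below 1 CPM, of which 0.294% rose and 0.0346% fell. Members of most lists lie at 1 CPM or more, where 11.3% of genes passed in either direction, against 7.48% of all genes.

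Part of the sterol and lipid genes rose at 48 h, among them ACAT2, SQLE and SREBF2. Of 10 measured genes of this list, 4 passed the test, all higher, against 4.7% higher over all genes, the list median log2 FC was 0.22, and the summed level of the list went from 1900 to 2100 CPM at 24 h to 2860 to 3040 CPM at 48 h. ACAT2, the cytosolic thiolase that makes acetoacetyl-CoA at the start of the mevalonate route, was at 263, 222 and 229 CPM at 24 h in passages p121, p126 and p128 and at 497, 542 and 589 CPM at 48 h. The groups did not overlap, and the rise was 2.28-fold (log2 FC 1.19, SE 0.0789, edgeR adjusted p = 1.68e-09). SQLE, squalene epoxidase, was at 789, 682 and 709 CPM at 24 h and at 965, 1100 and 1130 CPM at 48 h. Each passage was higher at 48 h, by 1.47-fold together (log2 FC 0.55, SE 0.0755, adjusted p = 4.35e-05), and the call was lost without passage p128 (adjusted p = 0.0599).

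SREBF2, which encodes the regulator itself, rose with these enzymes. It stood at 811, 749 and 768 CPM at 24 h and at 1150, 987 and 1060 CPM at 48 h, again without overlap (log2 FC 0.46, SE 0.0615, adjusted p = 3.64e-05). LRP1, a receptor that takes up lipoproteins, was counted with 7, 18 and 4 reads at 24 h and with 28, 21 and 15 reads at 48 h. The log2 FC of 1.25 (SE 0.343, adjusted p = 0.0281) rests on these few reads and ranged from 0.77 to 2.01 when 1 passage at a time was left out, with the call lost without passage p121 or p128. The other 6 members did not pass: CYB5R3, whose product supplies electrons for sterol synthesis, came nearest with a log2 FC of 0.30 (adjusted p = 0.0559), and PLIN2, a coat protein of lipid droplets, had 0.07 (adjusted p = 0.705). Without the 48 h library of passage p121 the log2 FC was 1.28 for ACAT2, 0.66 for SQLE and 0.46 for SREBF2, and all 3 stayed called, whereas LRP1 (1.07, adjusted p = 0.213) did not. ACAT2 overlaps TCP1, a chaperonin subunit gene, in the RefSeq annotation (UU_Cfam_GSD_1.0), and the strand used in counting is not given in the sources used here, so their reads cannot be fully told apart. TCP1 itself had a log2 FC of -0.19 (adjusted p = 0.0773).

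The sterol genes reached their new level by 48 h and went no further on the third day. ACAT2 stood at 500, 555 and 529 CPM at 72 h, SQLE at 1070, 1140 and 1030 CPM, and SREBF2 at 1110, 955 and 1040 CPM. The change from 48 h to 72 h was smaller than that from 24 h to 48 h in a test of the difference between the 2 steps, by a log2 of -1.23 for ACAT2 (adjusted p = 7.51e-06), -0.53 for SQLE (adjusted p = 0.0172) and -0.50 for SREBF2 (adjusted p = 0.00742). Of all genes, 1011 (6.14%) passed that test, 147 (0.893%) of them with a log2 difference above 1 in size. Both steps use the 48 h libraries, so a high value there raises the first step and lowers the second.

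**Figure D2:**
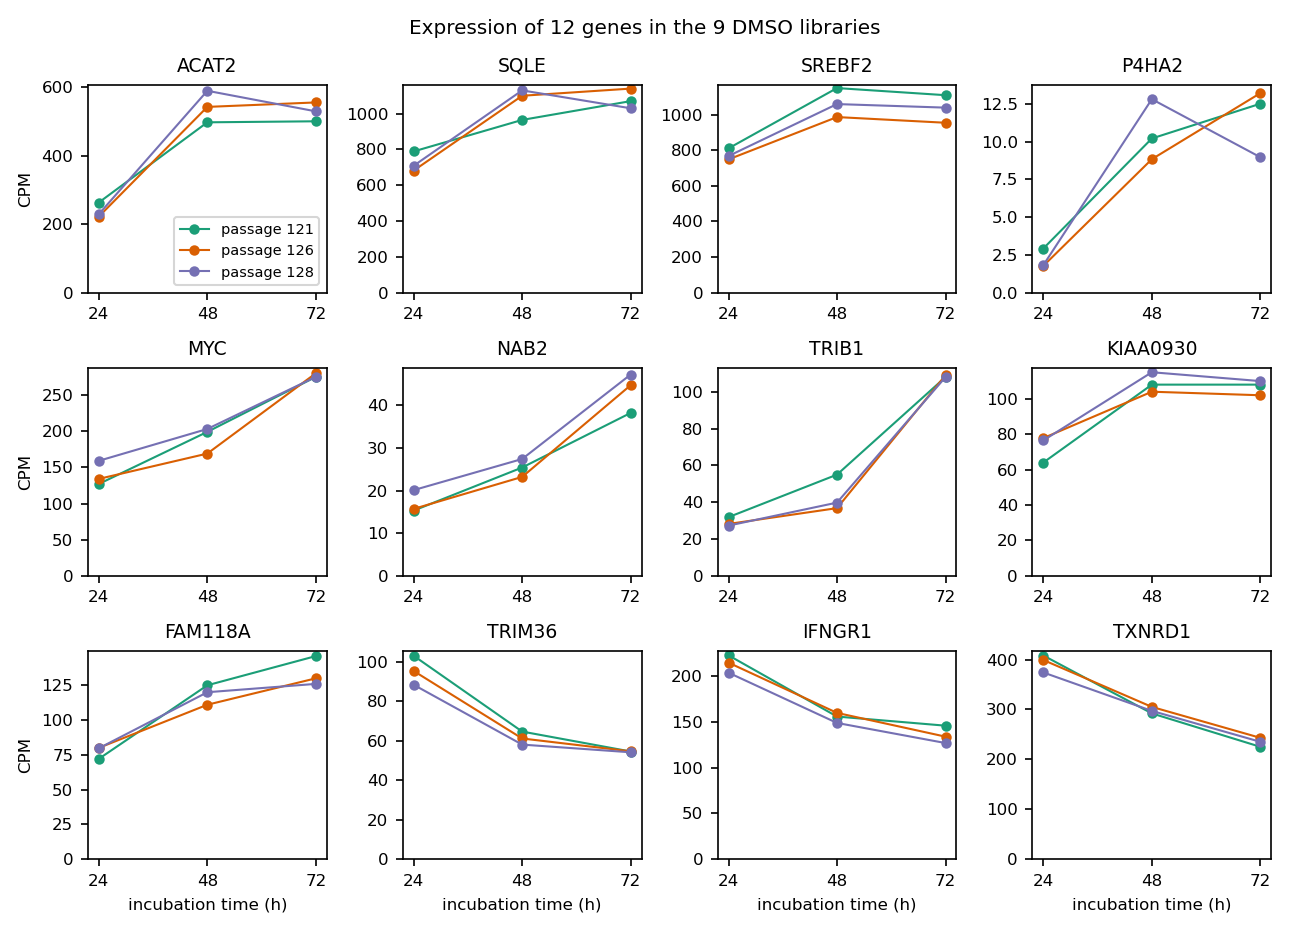
CPM (y axis, from 0) of 12 genes in the 9 DMSO libraries against incubation time (x axis, h), with 1 line for each passage. ACAT2, SQLE, SREBF2, P4HA2 and KIAA0930 level off after 48 h, MYC, NAB2 and TRIB1 rise further to 72 h, and TRIM36, IFNGR1 and TXNRD1 fall from 24 h to 48 h in all 3 passages.

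P4HA2 showed the largest change among the called genes with a symbol. It encodes a catalytic subunit of collagen prolyl 4-hydroxylase, is induced by low oxygen in many cells, and was at 2.92, 1.77 and 1.82 CPM at 24 h and at 10.2, 8.83 and 12.8 CPM at 48 h. The rise was 4.84-fold (log2 FC 2.28, SE 0.22, adjusted p = 1.08e-06), and at 72 h the level was 12.5, 13.2 and 8.96 CPM. P4HA2 was the 1 member called of the 7 measured in the hypoxia and glycolysis list, against 4.7% higher over all genes. The list median log2 FC was 0.27. HMOX1, heme oxygenase 1, had a log2 FC of 0.27 (adjusted p = 0.444) and HIF1AN, an oxygen-dependent inhibitor of HIF, -0.02 (adjusted p = 0.961). The classical glycolytic enzymes of the list had no symbol pairing.

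Early response genes divided into members that rose in each passage and members that differed between passages. Of 11 measured, 4 rose, against 4.7% of all genes, and 0 fell by edgeR (1 lower at an unadjusted p of at most 0.05, and 4 and 0 calls by DESeq2), with a list median log2 FC of 0.22. MYC, the growth-promoting transcription factor, was at 127, 134 and 159 CPM at 24 h and at 199, 169 and 203 CPM at 48 h (log2 FC 0.45, SE 0.077, adjusted p = 0.000703). NAB2, a corepressor of EGR proteins, was at 15.3, 15.7 and 20.1 CPM at 24 h and at 25.4, 23.2 and 27.4 CPM at 48 h (log2 FC 0.58, SE 0.0989, adjusted p = 0.00061). The groups did not overlap for either gene. TRIB1, a pseudokinase that steers protein degradation, was at 31.9, 28.2 and 27.3 CPM at 24 h and at 55, 36.8 and 39.8 CPM at 48 h (log2 FC 0.58, adjusted p = 0.000663). IER3, a regulator of cell survival, had the same size of change at a lower level (log2 FC 0.57, adjusted p = 0.0106). MYC and NAB2 kept their calls when any 1 passage was left out, TRIB1 lost its call without p128, and IER3 with any passage left out.

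EGR1, the prototype of this class, went its own way in passage p121. It was at 140, 114 and 111 CPM at 24 h and at 294, 86.6 and 90.8 CPM at 48 h, higher in passage p121 and lower in passages p126 and p128. The log2 FC over all passages was 0.22 (SE 0.443, adjusted p = 0.883), and without the 48 h library of passage p121 it was -0.39 (adjusted p = 0.035). KLF10, a transcription factor induced by TGF-beta, had a similar split, with 59.8, 61.9 and 59.3 CPM at 24 h and 66.2, 36.1 and 45.8 CPM at 48 h. Its log2 FC was -0.32 (adjusted p = 0.186) with all libraries and -0.54 (adjusted p = 0.00435) without that library. TNF, from the cytokine list, was at 12.9, 15 and 18.3 CPM at 24 h and at 12.5, 28 and 25.5 CPM at 48 h, higher than at 24 h in passages p126 and p128 and not in passage p121. Its log2 FC of 0.51 (adjusted p = 0.289) became 0.80 (adjusted p = 0.0013) without that library. MYC (0.39), NAB2 (0.51), TRIB1 (0.43) and IER3 (0.57) all stayed called without it. The summed level of the 11 early response genes was 525 to 548 CPM at 24 h and 531 to 848 CPM at 48 h, the highest value being that of passage p121.

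The early response genes that rose by 48 h were higher again at 72 h. From 48 h to 72 h MYC reached 275, 280 and 275 CPM (log2 FC 0.54, adjusted p = 1.16e-05), and NAB2 reached 38.2, 44.7 and 47.2 CPM (log2 FC 0.77, adjusted p = 1.18e-06). For these genes the second step was not separable from the first, with a difference of 0.10 for MYC (SE 0.132, adjusted p = 0.78) and 0.19 for NAB2 (SE 0.163, adjusted p = 0.605). TRIB1 reached 108, 109 and 108 CPM, and its second step was the larger by a log2 of 0.73 (adjusted p = 0.0116).

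In the list of B-cell receptor and PI3K signalling, NFATC1 and BCL2 rose. Of 15 genes measured, 2 rose, against 4.7% of all genes, and 0 fell by edgeR (0 lower at an unadjusted p of at most 0.05 and by DESeq2), and the list median log2 FC was -0.02. NFATC1, a calcium-regulated transcription factor, went from 39.2, 41.8 and 41.5 CPM to 54.5, 52.4 and 50.6 CPM (log2 FC 0.36, adjusted p = 0.0147). BCL2, the anti-apoptotic protein, went from 22.1, 19.8 and 20 CPM to 30.3, 21.5 and 27 CPM (log2 FC 0.34, adjusted p = 0.0321). Both lost the call without passage p121 or p128, and neither was called without the 48 h library of passage p121, at 0.34 (adjusted p = 0.0839) and 0.27 (adjusted p = 0.219). INPP5D, the inositol phosphatase SHIP1, and RAC2, a small GTPase, had log2 FCs of 0.00 and -0.02. Among antigen presentation genes 1 of 8 rose, with a list median of 0.13: the MHC class II chain DLA-DRA went from 2790, 2760 and 2680 CPM to 3090, 3410 and 3160 CPM (log2 FC 0.23, adjusted p = 0.0264) and then to 4530, 4780 and 4290 CPM at 72 h. Its rise kept its call without the library of passage p121 at 48 h (0.28, adjusted p = 0.0457), but not when any whole passage was left out.

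Further small increases were called in 3 of 14 lysosome and autophagy genes and in 3 of 9 cell death and p53 genes, 2 of which (IER3 and BCL2) are also in lists above, against 4.7% of all genes. The lysosome and autophagy genes that rose were, with a list median of 0.06, SQSTM1, the autophagy receptor p62 (77.2, 78.5 and 70.7 CPM to 116, 99.6 and 109 CPM, log2 FC 0.52, adjusted p = 0.000137), IGF2R, which sorts lysosomal enzymes (log2 FC 0.42, adjusted p = 0.00164), and NEU1, a lysosomal sialidase (log2 FC 0.31, adjusted p = 0.0253). The cell death and p53 genes that rose were IER3, BCL2 and MDM2, with a list median of 0.13. MDM2, the ubiquitin ligase of p53, had a log2 FC of 0.24 (adjusted p = 0.0441), and without the library of passage p121 at 48 h IER3 was the 1 gene of this list still called. In the secretory pathway 2 of 18 genes rose and 1 fell, against 4.7% and 2.78% of all genes, with a list median of -0.07. WFS1, an endoplasmic reticulum membrane protein, had a log2 FC of 0.44 (adjusted p = 0.00103), RNF5, a ubiquitin ligase of the same membrane, 0.50 (adjusted p = 0.000401), and TMED7, a cargo receptor between endoplasmic reticulum and Golgi, -0.42 (adjusted p = 0.00316). Of 14 genes of the amino acid response, ATF4 alone passed (log2 FC 0.23, adjusted p = 0.0401; 0.18 and adjusted p = 0.263 without that library), and its targets PSAT1 and SHMT2 had 0.15 and 0.13 (adjusted p = 0.234 and 0.354). Of the genes called in these lists, SQSTM1, RNF5 and TMED7 lost the call without passage p128, IGF2R and WFS1 without p121 or p128, BCL2 likewise, and NEU1, IER3, MDM2 and ATF4 with any passage left out.

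Cell cycle genes moved in both directions by small amounts. Of 27 measured, 2 rose and 4 fell, against 4.7% and 2.78% of all genes, with a list median of -0.01 against 0.01 over all genes. CDKN2B, the CDK inhibitor p15, went from 96.1, 112 and 111 CPM to 125, 139 and 129 CPM (log2 FC 0.30, adjusted p = 0.0075), and LMNB1, the lamin of proliferating nuclei, went from 813, 795 and 784 CPM to 707, 697 and 671 CPM (log2 FC -0.21, adjusted p = 0.0404). The other members that passed were NCAPH2 of condensin (0.28), DSCC1 and RMI1, which act at replication forks and in recombination, and HAUS6 of the spindle (each -0.30). Without the 48 h library of passage p121 none of these 6 genes was called (adjusted p = 0.0611 for CDKN2B to 0.248 for RMI1), and CDC25C, a phosphatase that activates CDK1 (log2 FC 0.37, adjusted p = 0.041), and FBXO5, an inhibitor of the anaphase-promoting complex (-0.36, adjusted p = 0.0316), were. Of 16 translation genes 1 fell, EIF4G2, an initiation factor, from 2030, 2010 and 1920 CPM to 1740, 1700 and 1700 CPM (log2 FC -0.21, adjusted p = 0.0339). Its fall was larger on the third day, to 1030, 1040 and 1010 CPM, with a difference between the steps of -0.53 (adjusted p = 0.0052). Of 16 ribosome biogenesis genes 1 fell (UTP20, log2 FC -0.30, adjusted p = 0.0198), with a list median of -0.13, and none of 20 mitochondrial genes was called by edgeR or by DESeq2, with 3 of them at an unadjusted edgeR p of at most 0.05, all lower, and a list median of -0.02. CDKN2B and NCAPH2 lost the call without passage p121 or p128, and the 6 genes of these lists that fell lost it with any passage left out.

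In the remaining lists single genes were called, where 4.7% of all genes rose and 2.78% fell. Of 10 chaperone genes 1 fell, HSPA4 (log2 FC -0.24, adjusted p = 0.0231), and of 11 interferon response genes 1 fell, the kinase TBK1 (log2 FC -0.26, adjusted p = 0.048). Neither call was kept without the 48 h library of passage p121 or with any whole passage left out. Among 15 cytokines and receptors IFNGR1 was the 1 gene called. Of 9 epithelial and stromal markers, PMEL, a melanosome protein, rose from 0.95, 0.75 and 0.727 CPM to 1.84, 1.47 and 1.67 CPM (log2 FC 1.01, adjusted p = 0.0406), a call lost when any 1 passage was left out.

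**Figure D3:**
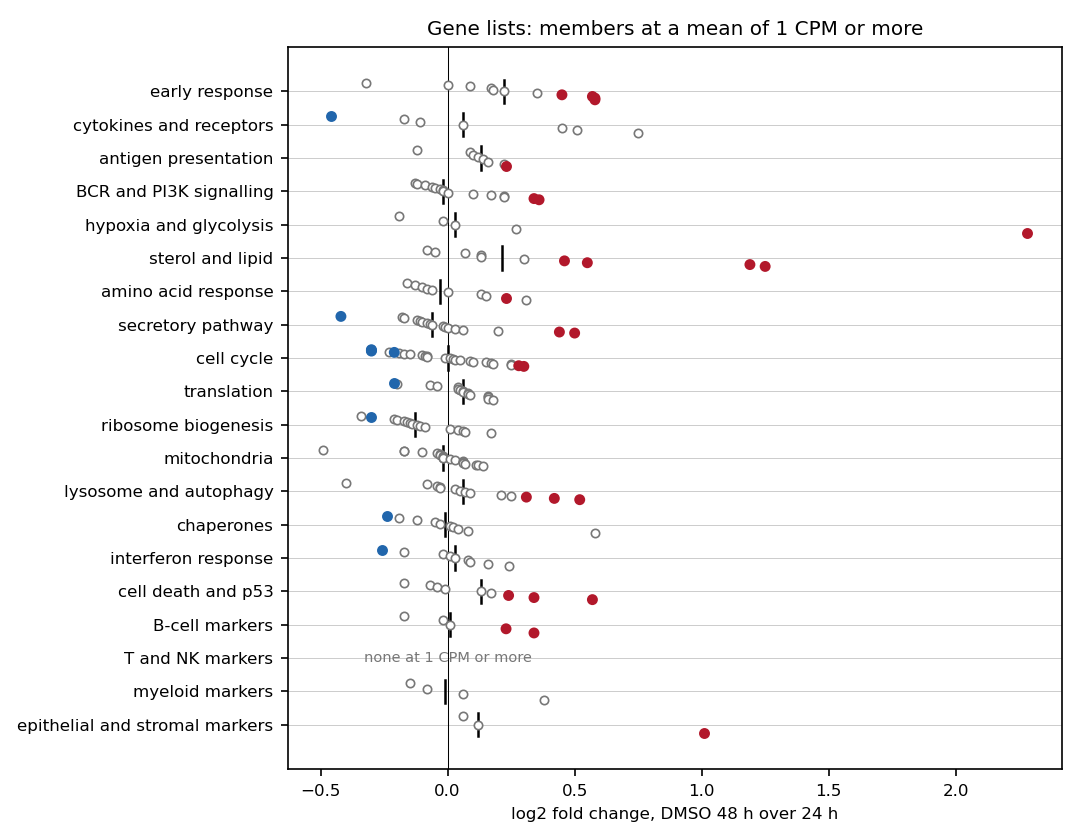
Log2 FC of DMSO 48 h over 24 h (x axis) for the members of each gene list (rows) at a mean of 1 CPM or more, with filled points for members past the adjusted p, red when higher and blue when lower, and a black line at the median of the members drawn. Sterol and lipid genes and early response genes hold 4 filled points each, all on the right, while mitochondrial genes hold none.

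Outside these lists, the largest increases among genes with a symbol at 1 CPM or more included KIAA0930 and FAM118A, both little characterised. KIAA0930 went from 64, 77.8 and 76.5 CPM to 108, 104 and 115 CPM (log2 FC 0.58, SE 0.0767, adjusted p = 2.73e-05) and stayed at 108, 102 and 110 CPM at 72 h. FAM118A went from 72.1, 80 and 79.7 CPM to 125, 111 and 120 CPM (log2 FC 0.62, SE 0.0773, adjusted p = 1.43e-05). In both the 2 groups were well apart. SLA, an adaptor that dampens antigen receptor signalling, was transient: it was at 8.11, 7.85 and 9.82 CPM at 24 h, at 11.9, 11.1 and 16.2 CPM at 48 h and at 9.2, 7.87 and 9.13 CPM at 72 h, with a first step of 0.60 (adjusted p = 0.00268) and a difference between the steps of -1.17 (adjusted p = 0.00196). SLA lies within TG in the RefSeq annotation, and its call was lost without passage p128. UST, a sulfotransferase of proteoglycans (0.74), RPP21, a subunit of ribonuclease P (0.68), AGER, the receptor for glycated proteins (0.71), and MYO1A, an unconventional myosin (0.90), completed the largest increases, and each lost its call without 1 or more passages. AGER and RNF5 overlap one another.

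Among decreases the changes were small. TRIM36, a ubiquitin ligase, had the largest fall among the called genes with a symbol, from 103, 95.3 and 88.3 CPM to 64.6, 61.1 and 58 CPM (log2 FC -0.64, SE 0.0714, adjusted p = 2.67e-06). IFNGR1, the ligand-binding chain of the interferon gamma receptor, went from 223, 215 and 204 CPM to 156, 160 and 149 CPM (log2 FC -0.46, SE 0.0652, adjusted p = 6.12e-05). TXNRD1, thioredoxin reductase 1, went from 408, 399 and 374 CPM to 292, 305 and 297 CPM (log2 FC -0.40, SE 0.0641, adjusted p = 0.000293) and to 225, 243 and 235 CPM at 72 h. The 3 genes had no overlap between 24 h and 48 h, and all 3 kept their calls when any 1 passage was left out. The other decreases of the 10 largest were PITPNC1, a phosphatidylinositol transfer protein (-0.48), TMED7 and ZMYM1 (both -0.42), THADA and PLAA (both -0.37), FAM13B (-0.35) and SCAF8 (-0.34), and each of these lost its call without 1 or more passages. THADA, PLAA, FAM13B and SCAF8 fell further at 72 h, by log2 FCs of -0.49, -0.48, -0.75 and -0.57 from 48 h. TMED7 and ZMYM1 did not, and for them the second step lay above the first by 0.63 (adjusted p = 0.0157) and 0.62 (adjusted p = 0.0121).

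Most DEGs had no symbol, and 4 of them, the 2 with the largest increase and the 2 with the largest decrease under the naming rule, are given by identifier. ENSCAFG00000014490 was at 4.31, 3.48 and 2.91 CPM at 24 h and at 25.6, 35.3 and 49.4 CPM at 48 h (log2 FC 3.34, SE 0.407, adjusted p = 0.011). ENSCAFG00000032469 was at 5.63, 3.48 and 6.09 CPM at 24 h, at 30.8, 45.5 and 76.1 CPM at 48 h and at 221, 269 and 217 CPM at 72 h (first step 3.30, SE 0.45, adjusted p = 0.0229). Both rose in every passage, but by unequal amounts, and both lost the call without passage p126 (adjusted p = 0.151 and 0.192). ENSCAFG00000015819 fell from 10.5, 13.5 and 10.5 CPM to 4.84, 3.64 and 4.23 CPM (log2 FC -1.45, SE 0.15, adjusted p = 8.74e-07), and ENSCAFG00000032358 from 4.09, 3.75 and 3 CPM to 1.17, 1.86 and 1.83 CPM (log2 FC -1.16, SE 0.228, adjusted p = 0.00253). The latter lost its call without passage p121. Of the 96 DEGs that rose, 61 were higher again and 2 lower at 72 h than at 48 h, and of the 11 that fell, 2 were lower again and 2 higher, where 27.5% of all genes passed the test of 72 h against 48 h.

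The inhibitor arms show whether the same genes moved over the same hours in other cultures. In a fit of 35 libraries, in which 1 Ibr library at 72 h was left out, 525 genes passed the adjusted p for DMSO at 48 h against 24 h, whereas 56 (0.3%) did so in the AS course, 46 (0.246%) in the Ibr course and 175 (0.937%) in the Ibr + AS course. Of the 96 DEGs that rose with DMSO, 73 had a log2 FC above 0 under AS, 72 under Ibr and 42 under the combination, and their medians were 0.32, 0.25 and -0.05. Of these, 9 were called in the same direction under AS, 7 under Ibr and 0 under the combination, where 2 were called in the opposite direction. Of the 11 DEGs that fell, 11, 8 and 7 had a log2 FC below 0, with medians of -0.56, -0.23 and -0.25. The median over all genes was 0.00, 0.01 and 0.00. The DEGs were chosen as extremes of the DMSO libraries, so a smaller median elsewhere is partly set by that choice.

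The difference between the 48 h to 24 h change with an inhibitor and with DMSO was tested for each gene, in a fit without a term for the sequencing run. The change of ACAT2 was smaller in all 3 arms, with log2 FCs of 0.38 with AS, 0.24 with Ibr and 0.28 in the combination arm and differences from DMSO of -0.81 (SE 0.131, adjusted p = 0.000479), -0.95 (SE 0.132, adjusted p = 2.76e-05) and -0.91 (SE 0.133, adjusted p = 2.24e-05). P4HA2 had 0.27 with Ibr (difference -2, adjusted p = 0.00353) and 0.00 with Ibr + AS (difference -2.27, adjusted p = 0.000547). With AS its log2 FC was 1.05, and the difference of -1.22 (SE 0.369) did not pass (adjusted p = 0.182). SREBF2 had 0.09, 0.07 and 0.11 in the 3 arms, and the differences of -0.36, -0.37 and -0.33 did not pass (adjusted p = 0.189, 0.137 and 0.14). SQLE had 0.37, 0.30 and 0.18, with differences of -0.18, -0.25 and -0.36 that did not pass either. Across all genes, AS had 64 such differences (0.343%; 0.123% also past the log2 limit of 1), Ibr had 104 (0.557%; 0.204%) and the combination had 327 (1.75%; 0.503%).

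TXNRD1, which fell with DMSO, had a log2 FC of 0.01 with AS, -0.02 with Ibr and 0.31 in the combination arm, the last a rise (adjusted p = 0.0154). TRIM36 and IFNGR1 stood at 0.11 and 0.06 with Ibr + AS, and both differed there from DMSO (adjusted p = 0.000592 and 0.012). BCL2 and NAB2 had -0.32 and -0.24 with Ibr + AS, below their DMSO values by -0.65 (adjusted p = 0.0306) and -0.81 (adjusted p = 0.0121). For KIAA0930, ENSCAFG00000015819, SQSTM1 and MYC no difference from DMSO passed. KIAA0930 rose with AS (0.44, adjusted p = 0.0208) and with Ibr (0.51, adjusted p = 0.00723), with differences from DMSO of -0.13 (SE 0.134) and -0.06 (SE 0.135). With Ibr + AS it had 0.25 (adjusted p = 0.328), a difference of -0.33 (SE 0.135, adjusted p = 0.314). ENSCAFG00000015819 had -1.46 with AS, -1.97 with Ibr and -1.44 in the combination arm. SQSTM1 rose with Ibr + AS (0.42, adjusted p = 0.0202) but had 0.08 with AS and 0.02 with Ibr. Its differences from DMSO in these 2 arms, -0.43 and -0.48, did not pass (adjusted p = 0.259 and 0.164). MYC stood at 0.19, 0.33 and 0.00, and none of its differences from DMSO passed (adjusted p = 0.725, 1 and 0.123).

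**Figure D4:**
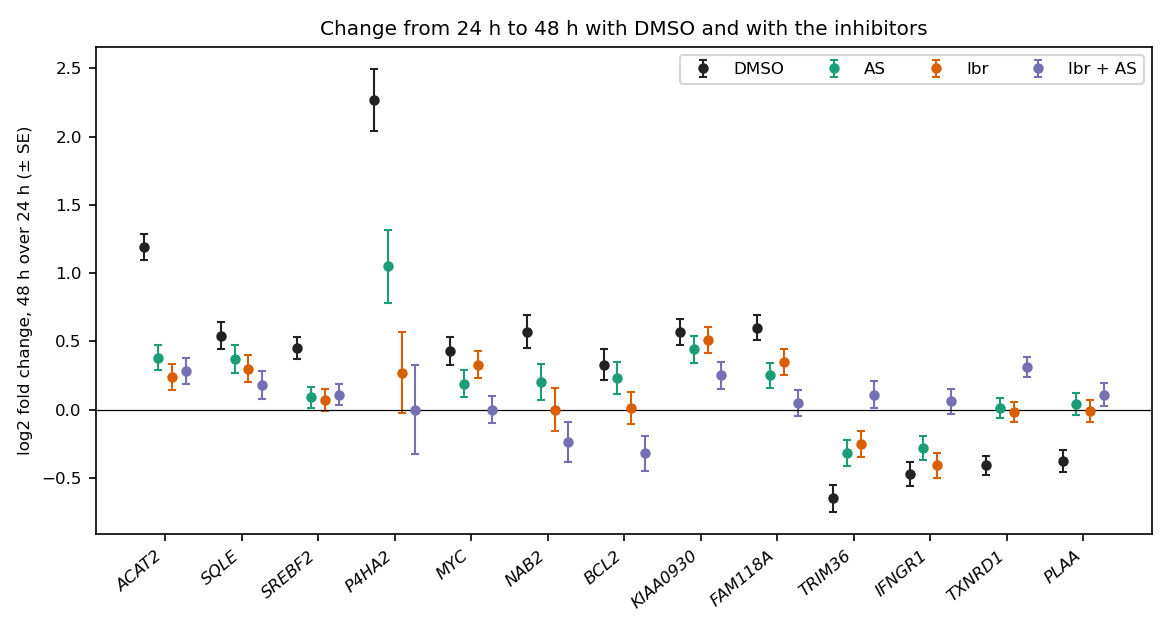
Log2 FC of 48 h over 24 h (y axis) of 13 genes with DMSO, AS, Ibr and Ibr + AS, as points with bars of 1 SE from the fit of 35 libraries. ACAT2 with DMSO (1.19) stands above the 3 inhibitor arms (0.24 to 0.38), and TXNRD1 is below 0 with DMSO and above 0 with Ibr + AS.

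A view that does not choose and measure genes in the same libraries took the genes at 1 CPM or more that were called in 2 DMSO passages and read their change in the remaining passage. For the genes that were higher (150 to 561, depending on the passages), the median log2 change in the remaining passage was 0.64 ± 0.315 (SD, n = 3) with DMSO. There 93.6% to 100% of them lay above 0, against 51.4% to 53.9% of all genes. In the treated cultures of that same passage the median was 0.18 ± 0.104 with AS, 0.08 ± 0.0751 with Ibr and 0.00 ± 0.0265 in the combination arm. The shares above 0 were 67.5% to 86.7%, 50.4% to 69.3% and 46% to 53.5%, against 49.9% to 51%, 48.1% to 50.2% and 46.1% to 53.2% of all genes. For the genes that were lower (41 to 259), the median was -0.33 ± 0.0751 with DMSO, -0.14 ± 0.0839 with AS, -0.08 ± 0.085 with Ibr and -0.02 ± 0.181 in the combination arm. All-gene medians lay between -0.03 and 0.03. With DMSO the lowest of the 3 values for the higher genes was 0.36 (passage p126), and the highest value of any inhibitor arm was 0.30 (AS, passage p128). These 2 values come from different passages and gene sets. The genes were chosen by their change with DMSO, so a smaller median in the inhibitor arms is partly set by that choice, also in the remaining passage. The gene sets of the 3 passages differ and overlap, and no test was made over them.

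**Figure D5:**
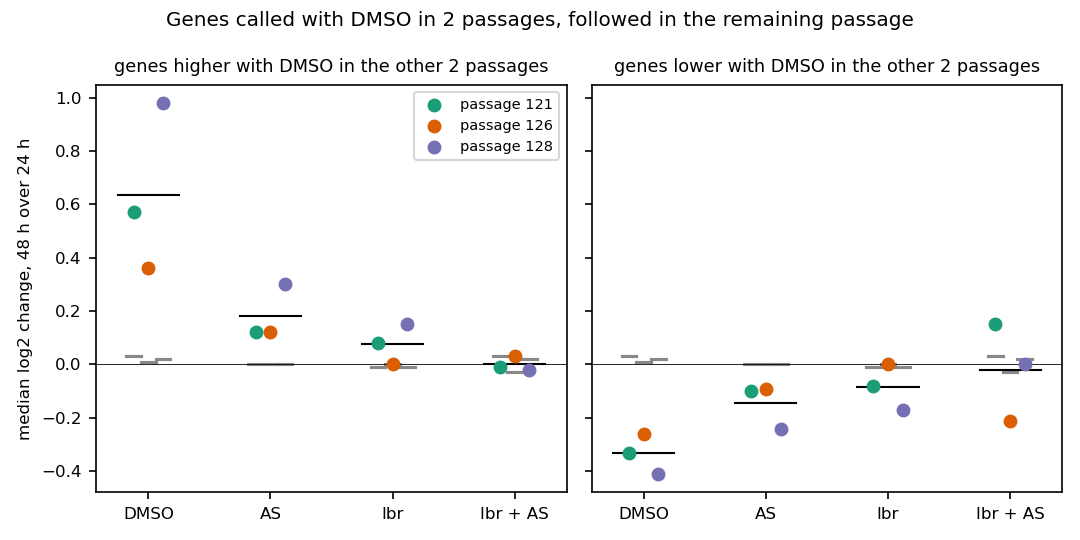
Median log2 change from 24 h to 48 h (y axis) in the passage that was not used to call the genes, for genes higher (left) and lower (right) with DMSO in the other 2 passages, by treatment (x axis). Points are passages, black lines their means and grey lines the median of all genes; the means fall from 0.64 with DMSO to 0.18, 0.08 and 0 with AS, Ibr and Ibr + AS.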

How the data were processed

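CLBL-1 RNA was sequenced as poly-A libraries of single-end reads. Per the labels, the authors aligned reads with STAR 2.7.5a and SAMtools to CanFam3.1 and deposited raw read counts per Ensembl gene for 30424 genes, one column for each of the 36 libraries; the counted strand is not given in the sources used here. Symbols came from the identifier and symbol columns of the study's tables, held here in shortened form (1068 identifiers paired, mostly the lowest); their fold changes and p-values were not used. RefSeq names (UU_Cfam_GSD_1.0, 43286 genes) served to find overlapping genes; no sequence was printed.

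Counts of the 9 DMSO libraries were fitted with edgeR 4.0.16 (R 4.3.3) by quasi-likelihood with TMM factors, terms for time and passage, genes with at least 2 reads, and Benjamini-Hochberg adjustment over all genes; the tests of an inhibitor against DMSO used 35 libraries, since 1 Ibr 72 h library stands apart from its group. The edgeR fit with gene-specific prior degrees of freedom (median 17.5 with 4 residual degrees of freedom) was chosen after the data were seen, because their median was infinite in the legacy fit. DESeq2 1.42.0, other scaling, filters, sample sets and leaving out libraries were alternatives. CPM values used TMM-scaled library sizes, and log2 changes within a passage a prior count of 1.

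Genes called at an adjusted p of 0.05 were DEGs when the size of their log2 FC exceeded 1. Genes were named when they were DEGs with a symbol, among the 10 largest changes per direction past the adjusted p with 1 direction in all passages and at least 1 CPM, or called list members, plus 2 DEGs per direction without a symbol. The gene lists and members were chosen with earlier results of these data known. Pairing comes from the passage labels; deviations of same-passage 24 h and 48 h libraries correlated at 0.101, 0.0895 and 0.113 over 8061 genes. Title and passage field disagree for the 24 h library of replicate 3, and the field (p128) was used. P-values rest on the spread that is left among 3 passages of 1 line after the passage term. That spread was pooled over all groups of a fit and moderated across genes. Scripts were tested on simulated counts.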

Additional observations from a re-analysis of the deposited data

Results flagged for a closer look

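In a test of the difference itself (edgeR, 35 libraries, adjusted over 18670 genes), 12 named genes changed otherwise from 24 h to 48 h with an inhibitor than with DMSO. With AS, ACAT2 lay below its DMSO change by a log2 of -0.81 (adjusted p = 0.000479) and TXNRD1 above it by 0.42 (adjusted p = 0.0457). With Ibr, ACAT2 differed by -0.95 (adjusted p = 2.76e-05), P4HA2 by -2 (adjusted p = 0.00353) and ENSCAFG00000032469 by -2.89 (adjusted p = 0.0178). With Ibr + AS, the genes that had risen with DMSO lay below it: ACAT2 by -0.91 (adjusted p = 2.24e-05), P4HA2 by -2.27 (adjusted p = 0.000547), FAM118A by -0.56 (adjusted p = 0.0152), NAB2 by -0.81 (adjusted p = 0.0121), BCL2 by -0.65 (adjusted p = 0.0306), ENSCAFG00000014490 by -4.04 (adjusted p = 0.016) and ENSCAFG00000032469 by -3.79 (adjusted p = 0.000149). In the same arm the genes that had fallen with DMSO lay above it: TRIM36 by 0.76 (adjusted p = 0.000592), IFNGR1 by 0.54 (adjusted p = 0.012), TXNRD1 by 0.72 (adjusted p = 1.04e-05), PLAA by 0.49 (adjusted p = 0.0134) and ENSCAFG00000032358 by 1.78 (adjusted p = 0.0159). These genes were named from the DMSO libraries that also enter each difference, so the sign of a difference is partly set by that choice, and what the inhibitors' cultures differed in by 48 h was not tested.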

How the results depend on the processing

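No value of the 51 called genes that were named by rule reversed under the alternatives run. EGR1, which was not called and is not among them, went from a log2 FC of 0.22 to -0.39 without the 48 h library of passage p121. Of 51 named genes past the threshold, 11 kept the call with each passage left out in turn and 40 lost it without 1 passage or more (ACAT2, P4HA2, FAM118A, KIAA0930, NAB2, MYC, SREBF2, TRIM36, IFNGR1, TXNRD1 and ENSCAFG00000015819 kept it). DESeq2 lost 9 of the 51, the 6 libraries alone 8 and the 35-library fit 26. Other scaling (RLE), filterByExpr, the legacy edgeR fit and a term for the sequencing run (fitted to the 9 DMSO libraries only) lost none. Leaving out the library of passage p121 at 48 h, like the legacy fit, was chosen after seeing the data, and lost 20. For 48 h against 24 h the 107 DEGs became 71 with DESeq2 and 9 when the limit of log2 FC was itself tested (glmTreat), and 46 to 101 without 1 passage. The 11 DEGs that fell became 4 with DESeq2, 6 without the block, 5 without the 48 h library of passage p121 and 4 to 8 without 1 passage. The 1231 genes at the adjusted p became 525 with 35 libraries, 621 without the 48 h library of passage p121 and 191 to 824 without 1 passage, and the share higher went from 62.9% to 72.2%, 75.7% and, without passage p128, 78.5%. Without the passage block (no pairing) 93 DEGs and 893 genes at the adjusted p were left, and 12 named genes lost the call. Other blocked results kept their counts within 1.5 times.

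For the difference between the steps, 147 DEGs became 75 with DESeq2, 92 without that 48 h library and 39 to 94 without 1 passage (no block 114). For AS against DMSO 23 became 36 with DESeq2 and 7 to 22 without 1 passage (no block 18), for Ibr 38 became 6 to 37 (no block 33), and for Ibr + AS 94 became 36 to 92 (no block 88). The cause of these moves was not tested; fits without a passage have fewer samples. At 0.205 to 0.273 CPM per 3 reads, changes of genes below 1 CPM were mostly not detectable at this depth.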
